A study of Homo sapiens with 4 samples.

Results

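In 1961 protein-coding genes, HL60 and HL60/MX2 cells each carried at least 1 m7G peak, yet no HL60 peak of the gene overlapped an HL60/MX2 peak. They took up 2993 peaks of HL60 (37.1% of 8070) and 2833 of HL60/MX2 (34.9% of 8122). The members were chosen by the measured peak positions themselves: each peak went to the hg19 protein-coding gene whose exons it covered most on its own strand, and a gene was kept when its peaks in the 2 lists shared not even 1 bp. Peaks were listed in both lines for 2422 genes, of which 81% met this rule, and the other 461 held overlapping peaks. Over all 20162 protein-coding genes the share was 9.73%. Peaks of 2901 further genes were listed in HL60 only and of 3330 in HL60/MX2 only.

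HL60 is an acute myeloid leukemia (AML) line labelled wild type, and HL60/MX2 is its drug-resistant derivative, selected with mitoxantrone and known for an altered topoisomerase II. Neither line received a treatment in this experiment. The 2 peak lists came from 1 m7G-enriched library per line, the 2 input libraries were not analysed here, and each line stood for itself with no replicate. No test between the lines was therefore possible, and 95% intervals (exact Clopper-Pearson for shares, order statistics for medians) cover counting error only. The number of reads behind a peak is unknown. Myeloid marker genes could not check the cell type, because peak lists hold no expression level. Of 12 such genes, 8 had no peak in either list and 0 had peaks in both, so none could be a member.

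N7-methylguanosine (m7G) is best known as part of the cap at the 5' end of every mRNA, and it also occurs inside tRNA, rRNA and mRNA, where METTL1 with its partner WDR4 is the known writer on tRNA and on a part of internal mRNA sites. In m7G MeRIP-seq, RNA is fragmented, fragments are pulled down with an antibody against m7G, and regions enriched over the input are called as peaks. The RNA of this study was decapped before it was fragmented, a step that takes off the cap. A peak covers a region, not a base, so 2 peaks at different places in a gene name 2 regions and not 2 modified guanosines.

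The closest peaks of the 2 lines lay in neighbouring exons in 259 of 1565 genes placed on their longest coding transcript (16.5%). In 103 of these they touched at the splice junction. The pairs printed here show this situation as sequence, since they carry the difference between 2 peaks that touch on the mRNA and 2 that do not. Each sequence is the peak as listed, read from GRCh37 (hg19) on the strand of the gene, 5' to 3', and capitals mark GGAAA or GGAAG, a purine-rich 5-mer searched on that strand only. Of 49 genes with 1 peak per line in neighbouring coding exons, 29 were kept, with both peaks wholly coding and of suitable length. Of these, the 4 with the highest scores are given. CYP2J2, a cytochrome P450 that oxidises arachidonic acid, was the 1 gene kept in the same way from 98 with both peaks in 1 exon.
CYP2J2 HL60: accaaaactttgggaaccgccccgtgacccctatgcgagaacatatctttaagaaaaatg
CYP2J2 HL60/MX2: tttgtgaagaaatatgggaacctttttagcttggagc
WDR49 HL60: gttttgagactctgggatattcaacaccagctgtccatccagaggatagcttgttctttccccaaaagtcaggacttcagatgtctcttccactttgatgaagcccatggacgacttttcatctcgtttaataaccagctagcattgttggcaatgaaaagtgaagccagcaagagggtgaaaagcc
WDR49 HL60/MX2: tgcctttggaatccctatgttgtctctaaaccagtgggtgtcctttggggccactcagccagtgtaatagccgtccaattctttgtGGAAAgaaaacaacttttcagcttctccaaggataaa
POTEM HL60: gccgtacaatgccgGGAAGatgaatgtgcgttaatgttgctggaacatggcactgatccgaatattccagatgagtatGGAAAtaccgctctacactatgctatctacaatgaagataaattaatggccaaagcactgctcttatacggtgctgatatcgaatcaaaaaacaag
POTEM HL60/MX2: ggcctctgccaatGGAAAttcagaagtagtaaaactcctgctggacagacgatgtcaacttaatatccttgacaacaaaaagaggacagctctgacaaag
CDO1 HL60: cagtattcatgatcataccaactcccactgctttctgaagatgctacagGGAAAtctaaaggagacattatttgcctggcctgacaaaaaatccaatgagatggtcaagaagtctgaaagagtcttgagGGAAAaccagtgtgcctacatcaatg
CDO1 HL60/MX2: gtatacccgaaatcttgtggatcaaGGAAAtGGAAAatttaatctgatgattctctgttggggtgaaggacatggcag
C4orf17 HL60: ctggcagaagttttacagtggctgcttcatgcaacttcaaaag
C4orf17 HL60/MX2: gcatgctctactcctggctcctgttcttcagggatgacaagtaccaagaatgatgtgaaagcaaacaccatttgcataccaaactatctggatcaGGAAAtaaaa

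In CYP2J2, the HL60 peak at chr1:60381610-60381669 and the HL60/MX2 peak at chr1:60381736-60381772 (minus strand) both lay in exon 2 of 9, with 66 nt between them. Neither held the marked 5-mer. WDR49, a WD-repeat gene, had its HL60 peak in exon 8 (chr3:167293753-167293939, minus strand) and its HL60/MX2 peak in exon 7 (chr3:167319915-167320037). These peaks were 25975 bp apart on the genome and 0 nt apart on the mRNA. In CDO1, which encodes cysteine dioxygenase, both peaks filled whole exons: exon 3 in HL60 (chr5:115146858-115147012, minus strand) and exon 2 in HL60/MX2 (chr5:115148878-115148955). Each CDO1 peak held the marked 5-mer at 2 places. In POTEM, an HL60 peak on the whole of exon 3 (chr14:19558991-19559164, plus strand) touched an HL60/MX2 peak on a part of exon 2 (chr14:19558732-19558831), but this gene belongs to a family of near-identical copies, so its reads could stem from another copy and its peaks are uncertain. In C4orf17, 39 nt of mRNA lay between exon 6 (HL60, chr4:100458865-100458907, plus strand) and exon 5 (HL60/MX2, chr4:100451011-100451115). In each of these 4 neighbouring pairs the HL60/MX2 peak was the one nearer the 5' end, whereas over all 259 genes with peaks in neighbouring exons it was so in 144 (55.6%, 49.3 to 61.7%).

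Peaks of the lines were mostly far apart. The gap between the nearest HL60 and HL60/MX2 peaks of a gene had a median of 9847 bp on the genome (interval 9042 to 10920 bp), with quartiles of 2523 and 30855 bp. Along the mRNA, with introns removed, the nearest peaks of 1565 genes could be placed on the longest coding transcript, and their gap had a median of 594 nt (549 to 657 nt) or 12.4% of the mRNA. In the other 396 genes at least 1 line had no peak on that transcript. Fragments were about 200 nt long, and 359 genes (22.9%) had a gap of 200 nt or less while 539 (34.4%) had one of more than 1000 nt. Genes with exactly 1 peak in each line numbered 944, of which 691 were placed, and there the median gap was 807 nt (735 to 929 nt) or 21.2% of the mRNA.

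**Figure D1:**
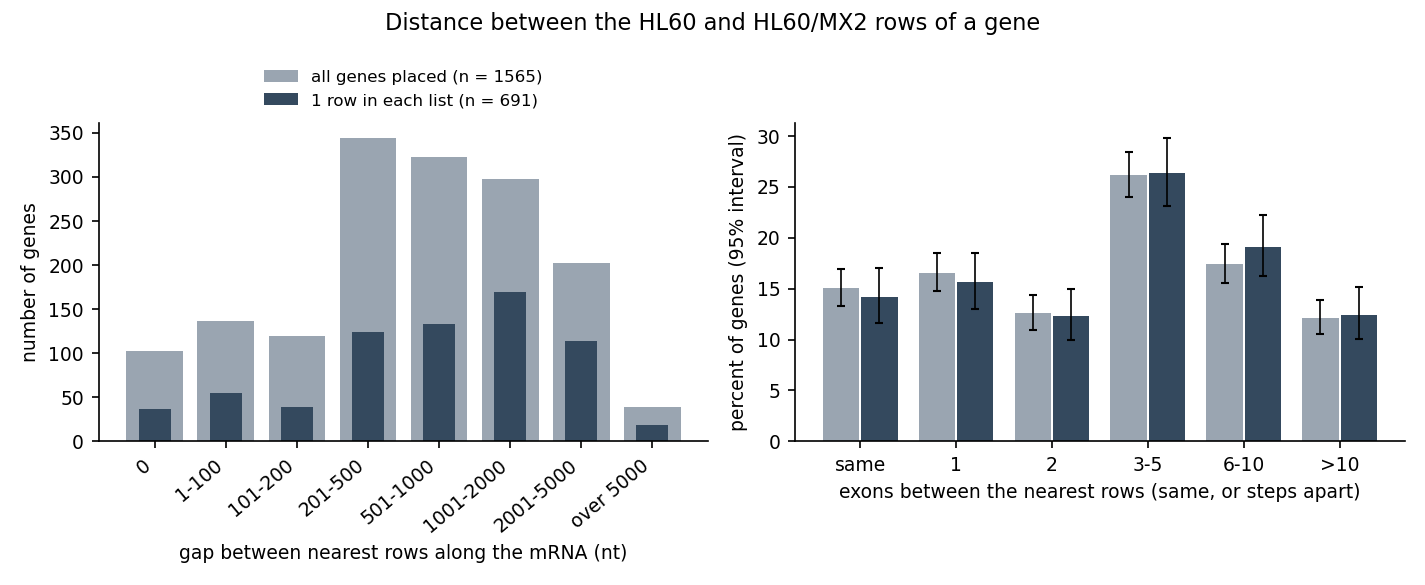
Left, number of genes by the gap in nt along the mRNA between the nearest HL60 and HL60/MX2 peaks (rows of the lists), for all 1565 placed genes (light bars) and the 691 with 1 peak in each line (dark bars). Right, percent of genes by the exons between these peaks, with exact 95% intervals and the same 2 colours; 15.1% of all placed genes had both peaks in the same exon and 26.2% had them 3 to 5 exons apart.

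The range of these gaps ended at the rule's own edge. Just inside it stood SBF2, a myotubularin-related gene, with 2 bp between the peaks, followed by IRAG2 with 5 bp, and by the autophagy protease ATG4C and the zinc finger gene ZNF546 with 6 bp each. Just outside it stood GABRG3, a GABA receptor subunit, with an overlap of 1 bp, SPATA21 with 2 bp and AK9 with 3 bp. A gap of at most 100 bp on the genome was found in 48 members. At the other end, LPP, a LIM-domain protein of cell adhesions, had its nearest peaks 17142 nt apart, which is 93.6% of its mRNA. In LPP the HL60 peak lay in the 3'UTR (exon 12) and the HL60/MX2 peak at the start codon (exon 2). ZFHX3, a homeobox transcription factor, had a gap of 11655 nt, KMT2A 10343 nt and the myosin phosphatase partner MPRIP 9895 nt.

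Distances between the lines were set beside those between peaks of 1 line. In 181 placed genes with 2 HL60 peaks and 1 HL60/MX2 peak, the 2 HL60 peaks lay a median of 983 nt apart (726 to 1307 nt), and an HL60 and an HL60/MX2 peak 1028.5 nt apart (883 to 1234 nt). The lone HL60/MX2 peak lay between the HL60 peaks in 62 of these genes, and the 2 HL60 peaks were the closest pair in 63 (34.8%, 27.9 to 42.2%). In 175 genes with the reverse numbers, the corresponding medians were 1137 nt within HL60/MX2 (856 to 1351 nt) and 1113.5 nt between the lines (884 to 1296 nt), and the same-line pair was closest in 56 (32.0%). The intervals within and between the lines overlapped in both sets of genes. The rule had already removed every gene with overlapping peaks of the lines. These distances therefore cannot show how alike the lines are. Over all placed pairs, 11.3% of 3494 pairs between the lines lay within 200 nt, against 7.70% of 1324 HL60 pairs and 11.7% of 976 HL60/MX2 pairs. The median gaps over these pairs were 1308.5 nt between the lines, 1741 nt within HL60 and 1482 nt within HL60/MX2, but there genes with many peaks supply many pairs.

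In most genes the nearest peaks of the lines lay in different exons. The rule favours this, since peaks that overlapped within a short exon were left out. Here a change or move means that the listed peaks differ in place, not that 1 peak was followed between the lines. Both nearest peaks lay in the same exon in 236 of 1565 genes (15.1%, 13.3 to 17.0%), and in 198 of these that was the last exon of a gene with several exons. Exons that held both peaks were long, with a median of 3652 nt, against 145 nt (HL60) and 156 nt (HL60/MX2) for the exons of all other pairs. Neighbouring exons held the peaks in 259 genes (16.5%), and in 103 of them the peaks touched at the junction with no base between. The peaks were 2 exons apart in 197 genes, 3 to 5 in 410 (26.2%), 6 to 10 in 273 and more than 10 in 190 (12.1%). In 72.5% of all 2993 HL60 peaks and 71.6% of all 2833 HL60/MX2 peaks at least 1 edge coincided with an exon end of any transcript. Among the placed peaks, 714 and 584 filled a whole exon of the longest coding transcript. What a peak covered beyond an exon end is not seen in the lists.

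Among genes with 1 peak in each line, the 4 highest ranked by score with both peaks in 1 exon were IGFN1, NALF1, SSTR2 and RP11-467N20.5. In IGFN1, an immunoglobulin-like muscle gene, a 3095 bp HL60 peak and a 236 bp HL60/MX2 peak stood 491 nt apart in exon 12. NALF1, an auxiliary factor of the NALCN sodium channel, had 299 nt between its peaks in the 3'UTR of exon 3. RP11-467N20.5 had 47 nt between peaks of 1362 bp and 394 bp in exon 8, but it has near-identical copies on chromosome 15, so the values are uncertain. Neighbouring coding exons held the peaks of STS, the steroid sulfatase, where exon 7 in HL60 touched exon 6 in HL60/MX2. In STYK1, a kinase-like gene, 71 nt lay between exon 6 in HL60 and exon 5 in HL60/MX2. The sperm gene SPATA31D1 had 799 nt between exons 4 and 3, and it too belongs to a family of similar copies.

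The region of the mRNA changed in 601 of the 1565 genes (38.4%, 36.0 to 40.9%). Regions were the 5'UTR, the start codon with 100 nt on each side, the coding sequence (CDS), the stop codon with 100 nt on each side, and the 3'UTR, and a peak took the region of its largest overlap. Both peaks lay in the CDS in 813 genes (51.9%), both in the 3'UTR in 135 (8.63%), and both at the 5' end, here the 5'UTR and start codon together, in 18. Among genes with 1 peak in each line the region changed in 358 of 691 (51.8%). Genes with more peaks were described by the nearest of several pairs, so this share and that of all 1565 genes are not measured alike. A change between CDS and 3'UTR was about as frequent in either direction, with 114 genes from CDS in HL60 to 3'UTR in HL60/MX2 and 120 the other way.

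**Figure D2:**
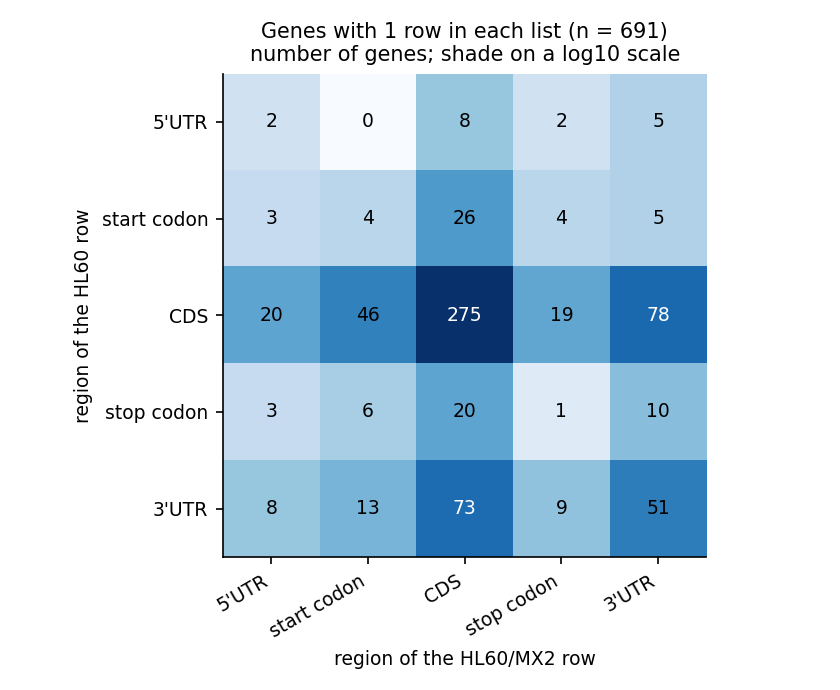
Number of genes by the mRNA region of the HL60 peak (vertical) and of the HL60/MX2 peak (horizontal), for the 691 genes with 1 peak in each line; the shade follows the number on a log10 scale. The largest cell is CDS in both lines (275 genes), and 46 genes went from CDS to the start codon against 26 the other way.

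Of these regions, the 5' end showed the largest difference in share between the 2 lists. In 166 genes (10.6%, 9.12 to 12.2%) the HL60/MX2 peak alone lay at the 5' end, and in 92 (5.88%, 4.76 to 7.16%) the HL60 peak alone did. From CDS in HL60 to the 5' end in HL60/MX2 there were 126 genes, and 69 the other way. Genes with 1 peak in each line gave 96 and 50. Counted over all placed peaks of the members, the share at the 5' end was 7.45% in HL60 (6.46 to 8.54%) and 12.2% in HL60/MX2 (10.9 to 13.6%). These intervals did not overlap. With only peaks at or above the median score of their list, the shares were 7.55% (5.95 to 9.43%) and 9.87% (7.99 to 12.0%), and the intervals overlapped. With 1 library per line the difference between libraries of the same line is not known. Genes with overlapping peaks had 8.76% (6.92 to 10.9%) and 10.7% (8.53 to 13.1%) of their peaks there, and these intervals overlapped. Genes with peaks in 1 list only had 13.3% in HL60 (12.1 to 14.5%) and 23% in HL60/MX2 (21.6 to 24.5%). The order of the lines was the same in all 3 kinds of gene, but within overlapping intervals in the genes with overlapping peaks. The shares were lower in the members than in genes of 1 list.

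CDS peaks made up 68.5% of the members' placed peaks in HL60 and 66.1% in HL60/MX2, while coding sequence away from the codons was 51.0% of the length of the members' transcripts. The 3'UTR held 20.5% and 18.0% of the peaks for 39.6% of the length. By position, the median peak stood at 37.0% of the mRNA from the 5' end in HL60 and at 35.4% in HL60/MX2. In the first 10% of the mRNA lay 314 of 2549 HL60 peaks and 409 of 2433 HL60/MX2 peaks. The HL60/MX2 peak was the one nearer the 5' end in 845 of 1565 genes (54.0%, 51.5 to 56.5%). With scores of at least 100 the share was 52.5% (49.7 to 55.4%), and with peaks at or above the median score 51.7% (47.8 to 55.7%), so that both intervals included equal numbers. Among the 1289 genes with neither nearest peak at the 5' end, it was so in 664 (51.5%, 48.7 to 54.3%), where equal numbers also lay inside the interval.

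**Figure D3:**
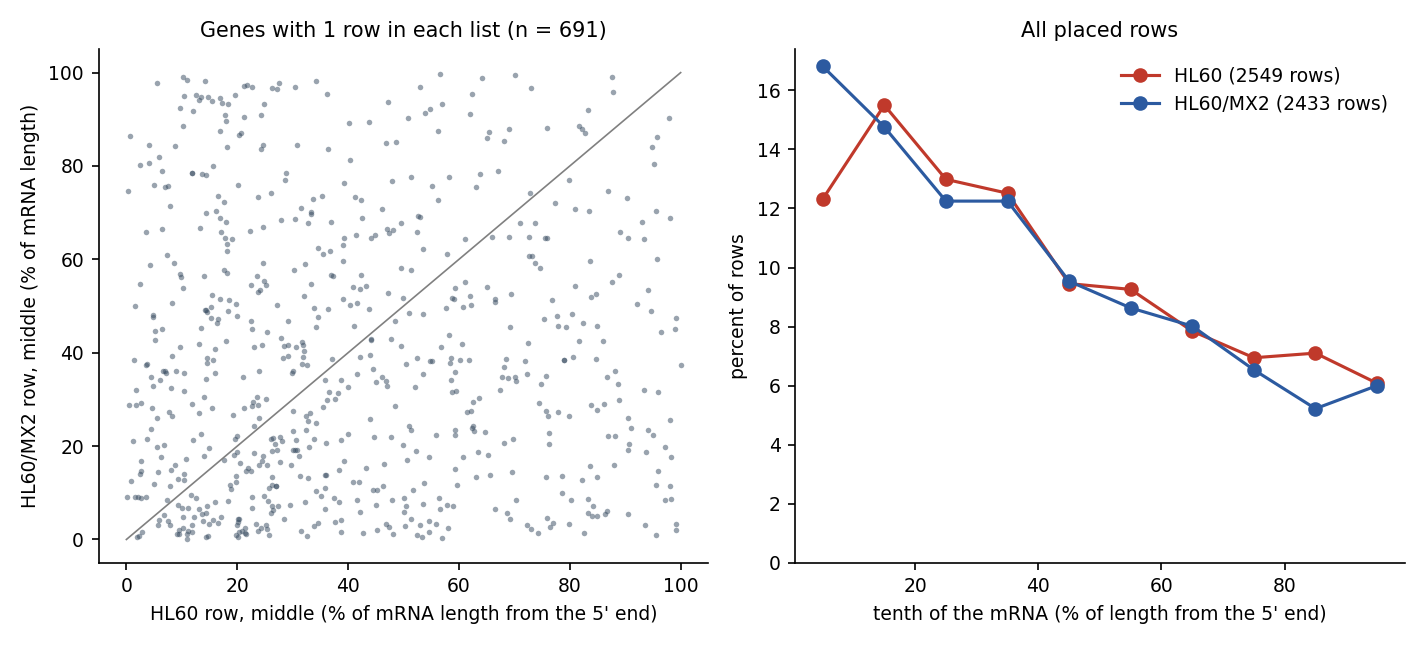
Left, middle of the HL60/MX2 peak against the middle of the HL60 peak, both in percent of mRNA length from the 5' end, for the 691 genes with 1 peak in each line; the line marks equal positions. Right, percent of all placed peaks of the members in each step of 10% of the mRNA, for HL60 (red, 2549 peaks) and HL60/MX2 (blue, 2433 peaks); the curves differ most in the step nearest the 5' end.

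First exons showed the same difference. The nearest peak lay in exon 1 in 58 genes in HL60 (3.71%) and in 131 in HL60/MX2 (8.37%), whereas the last exon held it in 391 and 389. Base composition differed with it: among peaks of at least 20 bp at the 5' end, the median GC content was 48.2% in HL60 (46.8 to 51.0%, n = 180) and 56.4% in HL60/MX2 (52.8 to 58.7%, n = 286). Peaks with at least 60% GC were 35 of the 180 (19.4%, 13.9 to 26.0%) and 123 of the 286 (43.0%, 37.2 to 49.0%). In 84 genes with 1 peak in each line and only the HL60/MX2 peak at the 5' end, that peak had a median GC of 60.8% against 42.1% for the HL60 peak of the same gene, and it was the higher one in 73 genes. In the 45 genes with the reverse move, the HL60 peak at the 5' end had 48.0% GC and the HL60/MX2 peak 45.2%. Away from the 5' end, the 483 pairs differed by a median of 0.487 percentage points, with an interval from -0.936 to 1.25. Whether base composition or library preparation has a part in the 5' end difference was not tested.

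Moves between the 5' end and the 3'UTR are described first. SLC6A4, the serotonin transporter, had its HL60 peak at the start codon in exon 3 and its HL60/MX2 peak in the 3'UTR in exon 15, 4791 nt apart. In RNF150, a RING finger gene, the HL60 peak lay in the 5'UTR of exon 1 and the HL60/MX2 peak in the 3'UTR of exon 7. MUC1, a membrane mucin, and SEM1, a small proteasome subunit, also went from the start codon to the 3'UTR, over 1601 and 276 nt. This direction was seen in 15 genes in all. The reverse was seen in 27, among them LHX1, a LIM homeobox transcription factor, with an HL60 peak in the 3'UTR of exon 6 and a 597 bp HL60/MX2 peak at the very start of exon 1. The ubiquitin ligase WWP1 and the zinc finger gene ZBTB41 moved likewise, from the 3'UTR to the start codon over 3477 and 3637 nt.

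Moves between CDS and 5' end were led by other genes. SSTR2, a somatostatin receptor, is coded in exon 2, and its HL60/MX2 peak lay at the start codon 741 nt before the HL60 peak. ZDHHC5, a palmitoyltransferase, had its HL60 peak on the whole of exon 4 and its HL60/MX2 peak on exon 1 in the 5'UTR. In NCAN, the brain proteoglycan neurocan, the HL60/MX2 peak lay at the start codon in exon 1 and the HL60 peak 3233 nt further in exon 10. GOLGA7, a protein partner in palmitoylation, moved from exon 3 to the start codon in exon 2. The clearest opposite case was ITPR3, an inositol trisphosphate receptor that releases calcium from the endoplasmic reticulum. Its HL60 peak covered the whole of exon 1 (chr6:33588142-33588213) and its HL60/MX2 peak lay in exon 48 of 59 (chr6:33655834-33655908), 7252 nt further along. ANXA10 (an annexin), ITGA10 (an integrin subunit) and SLITRK6 (a neuronal membrane protein) also had the HL60 peak at the 5' end and the HL60/MX2 peak in the CDS.

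The highest ranked moves between CDS and 3'UTR were as follows. HOXB2, a homeobox factor, had its HL60 peak in the coding part of exon 2 and its HL60/MX2 peak 145 nt later in the 3'UTR of the same exon. TEAD1, the DNA-binding factor of the Hippo pathway, moved the same way from exon 6 to exon 13. MS4A2, a subunit of the high-affinity IgE receptor, and LHCGR, the receptor for luteinizing hormone, had HL60 peaks in exons 2 and 5 and HL60/MX2 peaks in the 3'UTR. HEY2, a Notch target and repressor, had its HL60 peak in the 3'UTR of exon 5 and its HL60/MX2 peak on the whole of exon 3. UPK1B (a uroplakin), NTN4 (a netrin) and BEST4 (a bestrophin chloride channel) went the same way, with the HL60/MX2 peak in exon 5 of each. The HL60/MX2 peak of NTN4 was 7 bp long, which shows how short a listed peak can be.

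**Figure D4:**
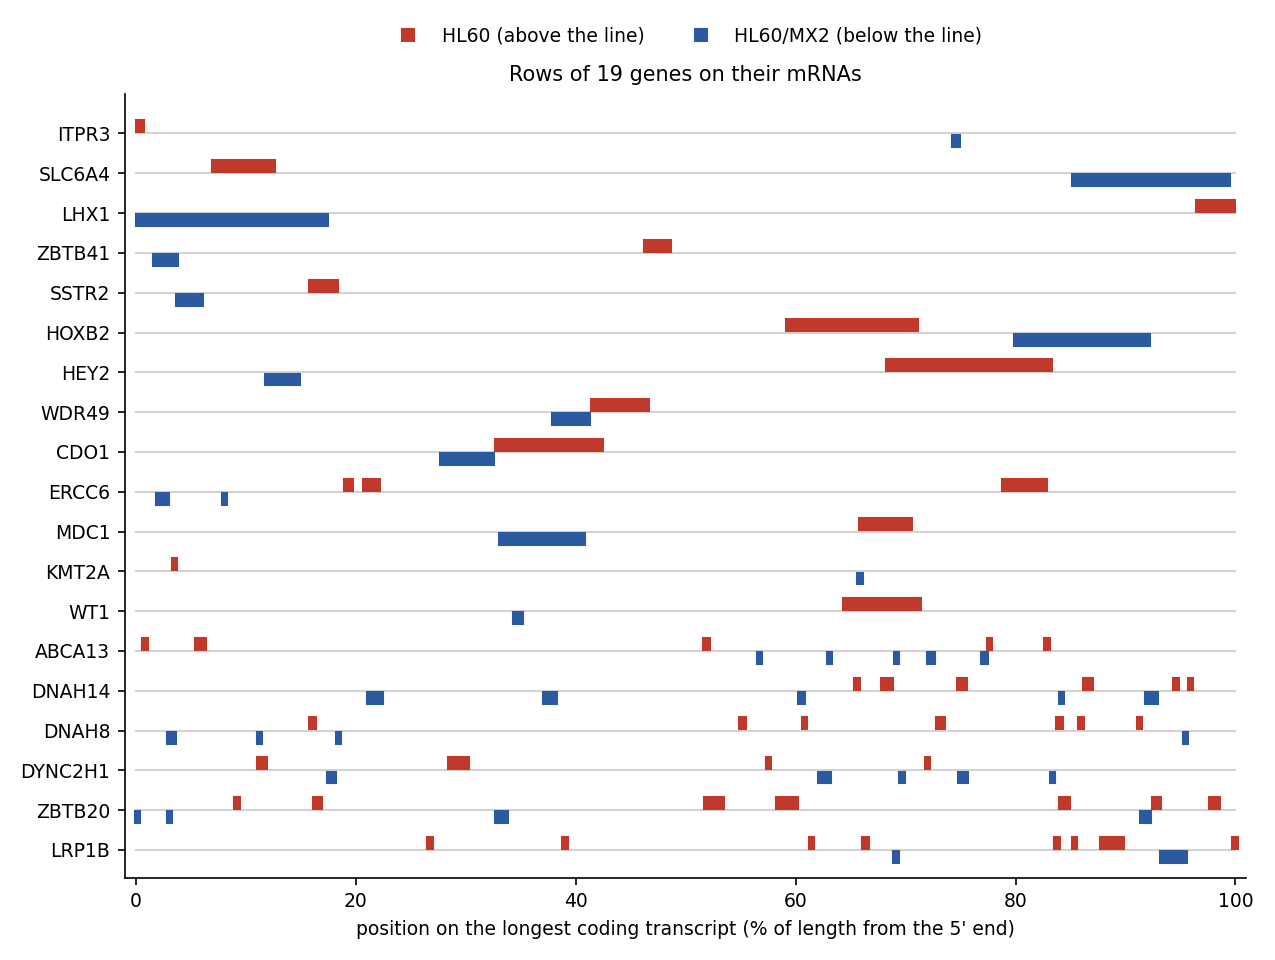
Peaks of 19 members on their longest coding transcripts, in percent of mRNA length from the 5' end, with HL60 peaks in red above each line and HL60/MX2 peaks in blue below it; peaks too short to see are widened around their middle, and peaks off the transcript are not drawn. ITPR3 and SLC6A4 show HL60 peaks near the 5' end with HL60/MX2 peaks near the 3' end, LHX1 the opposite, and WDR49 and CDO1 peaks that touch.

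Members were genes of many exons. Their longest coding transcript had a median of 14 exons and 4717 nt, against 12 exons and 4710 nt in genes with overlapping peaks, 9 exons and 3306 nt in genes with peaks in 1 list, and 6 exons and 2258 nt in genes with no peak. The share of genes that were members was 0.597% among genes of 1 exon, 4.27% at 2 to 5 exons, 7.53% at 6 to 10, 13.4% at 11 to 20 and 27.4% (25.5 to 29.2%) above 20. Among genes with peaks in both lines, it was 36.8% for 19 genes of 1 exon and 77.2% at 2 to 5 exons. From there it changed little, with 80.5% at 6 to 10, 82.6% at 11 to 20 and 82.3% above 20. Scores of the members lay near the middle of each list. Their median, in the units of the deposited score column, whose scale is not stated, was 196.77 in HL60 (percentile 49.7 of its list) and 266.59 in HL60/MX2 (percentile 50.6), and the median peak was 125 and 123 bp long. Within the 944 genes of 1 peak each, the score percentiles of the 2 peaks had a Spearman rho of 0.0814 across genes, a description only, since the genes share the same 2 libraries.

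The number of peaks was the same in both lines in 1060 members (54.1%), greater in HL60 in 476 (24.3%) and greater in HL60/MX2 in 425 (21.7%). The genes with the most peaks were ZBTB20, a zinc finger transcription factor, with 7 in HL60 and 6 in HL60/MX2, then DNAH14 with 7 and 5, the mucin MUC19 with 9 and 3, DNAH8 with 7 and 4, and LRP1B with 9 and 2. In ZBTB20, 6 of the HL60 peaks lay in the 3'UTR of exon 12, and 1 of them stood 13 nt from an HL60/MX2 peak. In DNAH14 the 7 HL60 peaks lay between exons 59 and 83, while HL60/MX2 peaks were also found in exons 19 and 33. LRP1B, a large receptor of the LDL receptor family, had HL60 peaks from exon 24 to exon 91 and HL60/MX2 peaks in exons 69 and 91.

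Molecular motor genes, which move cargo along microtubules or beat cilia, held 26 members among 78 kinesin and dynein genes (33.3%, 23.1 to 44.9%), beside 9.73% of all genes. Of the 28 with peaks in both lines, 92.9% were members, beside 81% of all genes with peaks in both lines. The list's genes have a median of 20 exons and 48.7% of them have more than 20, and the part of exon number in the share was not tested. Dynein heavy chains, the force-producing subunits of cilia and of retrograde transport, were members in 10 of 15 genes, kinesins in 13 of 42 and other dynein chains in 3 of 21. In 25 placed motor genes the region changed in 2, DNAI1 and DYNC1I1, both intermediate chains, beside 38.4% of all placed genes, and the median gap was 593 nt, beside 594 nt. DYNC2H1, the heavy chain of transport inside cilia, had HL60 peaks in exons 10, 26, 48 and 63 and HL60/MX2 peaks in exons 16, 52, 53, 60, 67 and 77, so peaks of the 2 lines alternated along its coding sequence. DNAH8 had HL60/MX2 peaks in exons 2, 10, 18 and 93, and HL60 peaks in exon 16 and from exon 54 to exon 89. In KIF21A, a neuronal kinesin, 18 nt lay between exon 22 in HL60 and exon 21 in HL60/MX2.

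**Figure D5:**
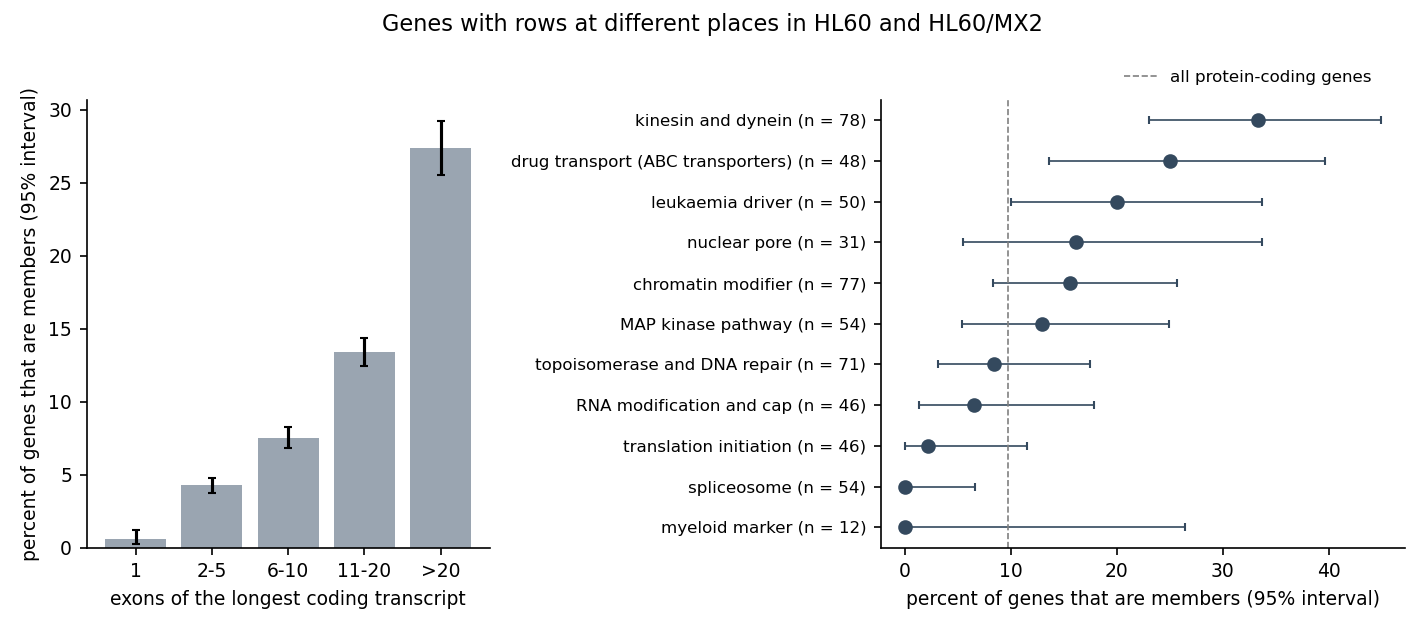
Left, percent of protein-coding genes that are members, by the number of exons of the longest coding transcript. Right, the same percent in 11 gene lists (n, genes found in the annotation), with the dashed line at the share of all protein-coding genes, 9.73%; bars and whiskers give exact 95% intervals, and kinesin and dynein genes stand highest at 33.3%. In both panels, genes without peaks in both lines count as non-members.

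ABC transporter genes held 12 members among 48 (25%, 13.6 to 39.6%), beside 9.73% of all genes. The list is not limited to drug exporters. Its members included ABCA4, ABCA5, ABCA8, ABCA9, ABCA10, ABCA13, ABCC9 and CFTR. Of the 14 with peaks in both lines, 85.7% were members, beside 81% of all genes with peaks in both lines. ABC transporters export lipids, drugs and other compounds across membranes, and 64.6% of the list have more than 20 exons. Of the 12, 11 kept the region, with CDS in both lines in 10, beside 61.6% and 51.9% of all placed genes. ABCA13 carried 5 peaks in each line, and its nearest peaks touched at a junction. In ABCC11, a transporter of drugs and of steroid conjugates, the HL60 peak lay in exon 21 and the HL60/MX2 peak in exon 3, 2470 nt apart. ABCC4, an exporter of nucleotides and nucleotide drugs, had HL60 peaks in exons 4, 28 and 31 and HL60/MX2 peaks in exons 11 and 12, with another one off the transcript. ABCC6 had exon 8 in HL60 and exon 5 in HL60/MX2, 194 nt apart, though pseudogene copies of its first exons exist and make these peaks uncertain.

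DNA repair and topoisomerase genes held 6 members among 71 (8.45%, 3.16 to 17.5%), a share near the 9.73% of all genes. Of the 10 with peaks in both lines, 60% were members, beside 81% of all genes with peaks in both lines. In all 5 placed members the nearest peaks were both in the CDS and the HL60/MX2 peak was nearer the 5' end. Over all placed genes both peaks were in the CDS in 51.9%, and among those the HL60/MX2 peak was nearer the 5' end in 51.5%. ERCC6, which acts in transcription-coupled repair, had 4 peaks in each line. Its placed HL60 peaks lay in exons 7, 8 and 21, and its placed HL60/MX2 peaks at the start codon in exon 2 and in exon 4, 967 nt before the nearest HL60 peak. MDC1, a scaffold at DNA breaks, had a 334 bp HL60 peak in exon 10, at percentile 44.1 of its list by score, and a 545 bp HL60/MX2 peak in exon 8, at percentile 99.1 of its own list. In FANCD2, of the Fanconi anaemia pathway, the HL60 peak lay in exon 43 and the HL60/MX2 peak in exon 25, whose score of 50.1 was close to the lowest of its list. ATR, the kinase that responds to stalled replication, had 362 nt between exon 32 in HL60 and exon 28 in HL60/MX2. NBN, a subunit of the break-sensing MRN complex, had 121 nt between exons 10 and 9, with a low HL60 score of 53.15. The mismatch repair gene PMS1 was not placed in HL60/MX2.

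Leukaemia driver genes held 10 members among 50 (20%, 10.0 to 33.7%) beside 9.73% of all genes, and 36% of the list have more than 20 exons. Of the 11 with peaks in both lines, 90.9% were members, beside 81% of all genes with peaks in both lines. Of the 9 placed members, 4 changed region, beside 38.4% of all placed genes. KMT2A, a histone methyltransferase rearranged in acute leukaemia, had its HL60 peak in exon 3 (chr11:118339490-118339559) and its HL60/MX2 peak in exon 30 of 37 (chr11:118379861-118379915). In WT1, a zinc finger factor, the HL60 peak lay in the 3'UTR of exon 10 and the HL60/MX2 peak in coding exon 3, 882 nt before it. PHF6, a chromatin-binding gene, likewise moved from the 3'UTR to the CDS. JAK2, a cytokine receptor kinase, moved from a 6 bp HL60 peak in exon 16 to the 3'UTR in exon 25. The cohesin subunit STAG2 moved from exon 9 to the start codon in exon 3. PML kept all peaks in the 3'UTR of exon 9, with 356 nt between the nearest. CDS peaks of the lines were 10 exons apart in MLLT10, 8 in NF1 and 7 in CREBBP, and TET2 was not placed.

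The remaining lists are given beside the same 9.73% of all genes. Among genes with peaks in both lines, members were 75% of 16 chromatin modifiers and 77.8% of 9 MAP kinase genes. Nuclear pore genes gave 100% of 5, RNA modification and cap genes 60% of 5 and translation initiation genes 33.3% of 3. The share of all genes with peaks in both lines was 81%. Chromatin modifiers held 12 members among 77 (15.6%), and 76.6% of the list have more than 20 exons. In 1 of the 12 the region changed: EHMT1, a histone H3K9 methyltransferase, from the 3'UTR in HL60 to the start codon in HL60/MX2, where the score was 52.01. BRWD3 had 34 nt between peaks in its 3'UTR. MAP kinase genes held 7 among 54 (13.0%), with MAP3K13 moving from the 5'UTR to the 3'UTR over 8256 nt. The HL60 peak of MAP3K13 had a low score of 55.77, at percentile 2.81 of its list. Nuclear pore genes held 5 among 31 (16.1%). RNA modification and cap genes held 3 among 46 (6.52%): METTL16, an m6A methyltransferase, moved from CDS exon 4 to the start codon in exon 1, NSUN7 from the stop codon to the 3'UTR of the same exon, and the decapping gene DCP1B was not placed in HL60. Translation initiation genes held EIF2AK4 alone among 46, a kinase that senses amino acid shortage. No spliceosome gene among 54 was a member, and none could be, since 0 of them had peaks in both lines.

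Short motifs were counted in the peaks of both lines. The authors reported both motifs from a motif search in the m7G peaks of this experiment. An excess in peaks over transcript windows is therefore not an independent result. The marked 5-mer was present in the central 100 nt of 36.2% of the members' peaks in HL60 (34.0 to 38.5%, n = 1836) and 34.1% in HL60/MX2 (31.8 to 36.4%, n = 1694), counting peaks of at least 100 bp, against 31.7% of all windows of 100 nt along the members' transcripts. Within the CDS the shares were 41.4% (38.1 to 44.8%) and 38.0% (34.5 to 41.5%), against 35.8% of coding windows, which lay inside the HL60/MX2 interval. A second motif, CTG followed by G or T and then by A or G, was found on the same strand in 47.2% of the HL60 windows (44.9 to 49.5%) and 49.2% of those of HL60/MX2 (46.8 to 51.6%), against 47.4% along the transcripts. In the CDS it was found in 47.5% (44.2 to 50.9%) and 51.8% (48.2 to 55.4%), against 50.1% of coding windows. For both motifs the intervals of the 2 lines overlapped.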

How the data were processed

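The deposited lists give each m7G peak its chromosome, start, end, running number, score and strand. Per the labels and the methods, the authors isolated mRNA with oligo(dT) beads, decapped and fragmented it, immunoprecipitated it with an m7G antibody, made strand-specific libraries, trimmed reads with Cutadapt 1.9.3, aligned them to hg19 with HISAT2 2.0.4 (the submitters' processing notes also list STAR), called peaks per line with MACS and kept peaks over exons. The MACS version and the scale of the score that the authors deposited are not given in the sources used here, so scores were read only against their own list. The lists carry no read counts, so depth is unknown.

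Starts were converted to count from 1. Genes came from GENCODE 44 placed on GRCh37, on chromosomes 1 to 22, X and Y. Each peak was given to the protein-coding gene of largest same-strand exon overlap (7739 and 7803 peaks), and placed on the transcript with the longest CDS. The nearest pair of peaks along the mRNA described a gene. 1 member peak, of ARHGEF5, overlapped a peak of the other line that was given to no gene. The score percentile is the share of the list with a lower score. The members, gene lists and rules were chosen with earlier results of these data known. Named genes were, for each kind of move among genes with 1 peak in each line, the 4 with the highest lower percentile of the pair, plus the extremes of peak number and gap, ERCC6 and list members in alphabetical order. EHMT1, DYNC2H1, DYNC1I1, KIF21A and DNAI1 were named after their values were seen. No test was made between lines. Python 3.11.15, numpy 2.4.6, scipy 1.17.1 and matplotlib 3.10.9 were used. In simulated lists, 966 of 1000 planted pairs (96.6%) went to their gene, and the exon, gap and region of all 963 placed ones were recovered.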

Additional observations from a re-analysis of the deposited data

How the results depend on the processing

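Of 74 values recomputed under 11 alternative settings, 50 stayed within counting error or 1.5 times the count and 24 moved beyond it. A reversal was defined only for the direction along the mRNA, and there 0 values reversed. Counting peaks within 100 bp as overlapping gave 12.7% of genes with both peaks in the same exon. When an overlap of at least 50% of both peaks was required, the median gap was 500 nt, 22.8% shared an exon and 35.4% changed region. With scores of at least 100 the median gap was 662 nt. With only peaks at or above their list's median score there were 809 genes, 1091 HL60 and 1036 HL60/MX2 peaks, a median gap of 768 nt, 35.5% changing region and 9.87% of HL60/MX2 peaks at the 5' end beside 7.55% in HL60, with overlapping intervals. Peaks of at least 50 bp gave a gap of 697.5 nt and 18.8% in the same exon. On the transcript holding most peak bases, 43.9% changed region, and 11.4% of HL60 and 15.5% of HL60/MX2 peaks lay at the 5' end. Codon classes of 50 nt on each side gave 35.0%, 5.77% and 10.1%. Genes with 1 peak in each line gave 807 nt and 51.8%. The pair of highest scoring peaks gave 992 nt, 12.8% in the same exon and 45.0% changing region. Where a setting uses fewer peaks or genes its construction changes the set; otherwise the cause was not tested.

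No paired analysis was possible because each line has 1 enriched library, and no replicate was there to leave out. The spread between libraries of 1 line is unknown, and so is the depth, since the lists hold no read counts.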
